A study of Mus musculus with 4 samples.

Results

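The replication-dependent histone genes of the mouse were examined in ATAC-seq peak lists from posterior forelimb buds. They were taken as the protein-coding genes of GENCODE M21 whose symbol starts with Hist1h, Hist2h, Hist3h or Hist4h, which gave 67 of 21938 genes. Of these, 6 encode linker histone H1, 18 encode H2A, 18 encode H2B, 12 encode H3 and 13 encode H4. The Hist1 genes lie on chromosome 13 in a group of 23 and a group of 31, called Hist1 part 1 and part 2 here. The 10 Hist2 genes lie on chromosome 3, the 2 Hist3 genes on chromosome 11 and the single Hist4 gene on chromosome 6.

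ATAC-seq marks open chromatin by inserting sequencing adapters with the Tn5 transposase. There were 4 libraries, 2 from wild-type (WT) embryos and 2 from Shh-/- embryos, all at E10.5 with 35 somites and of Swiss Webster background. Where values are given for a genotype, replicate 1 comes first, and runs of 4 values give WT before Shh-/-. Each library was made from the posterior forelimb buds of a single embryo, with 5000 cells in the reaction and 18 PCR cycles. Shh-/- embryos carry a germline null allele of Sonic hedgehog in every cell, so the ligand of the Hedgehog pathway is missing in the whole embryo, and no other allele or agent is named for either group. The study compared the genotypes to ask how chromatin accessibility depends on Hedgehog signaling.

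Replication-dependent histones package the DNA that is copied in S phase, and dividing cells need all 5 types at that time. H2A, H2B, H3 and H4 form the core of the nucleosome, and H1 binds the DNA between nucleosomes. The genes lie in clusters, have no introns in their main transcripts and make mRNAs that end in a short stem-loop in place of a poly(A) tail. The stem-loop is bound by the protein made from Slbp, and the clusters gather in a nuclear body whose central factor is encoded by Npat. Many H2A and H2B genes lie back to back and start from a shared stretch of DNA.

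The stem-loop is the sequence that sets these mRNAs apart, and it is shown here because the search fixed 5 of its letters and otherwise only its shape. It was searched as 6 paired bases that start with GG, around a loop of 4 bases that starts with TTT, on the sense strand. Within 100 bp after the stop codon it was present in 60 of the 67 histone genes (89.6%) and in 65 of all 21938 genes (0.296%). In the gene or up to 100 bp past its end it was found in 63 of the 67. The sequences below are those closest to the stop codon, read from GRCm38.p6, with the loop in capitals.
Found in 41 genes, 0 of them H4: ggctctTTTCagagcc
Found in 9 genes: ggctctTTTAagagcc
Found in 8 genes, all H4: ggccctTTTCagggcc
Found in 2 genes, both H4: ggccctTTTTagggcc
Found in 2 genes, both H4: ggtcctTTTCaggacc
Found in Hist2h2ac: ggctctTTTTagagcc

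The genes without a match were Hist2h2be, Hist1h2an, Hist1h3g and Hist1h4a. In the H4 genes that held a match the stem began with GGCCCT or GGTCCT, and in the other types it began with GGCTCT.

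Many H2A and H2B genes start on either side of a short region, and the 2 such regions with the best mean ranks are shown, together with a pair that had no peak. Capitals mark TATAAA (the TATA box), CCAAT (the CCAAT box) and ATTTGCAT (the octamer), on either strand, and the motifs may overlap. Hist1h2ac (H2A) runs leftward and Hist1h2bc (H2B) rightward from chr13:23683949-23684198. Hist1h2ag (H2A) and Hist1h2bj (H2B) run in the same manner from chr13:22042945-22043213, and Hist1h2bq (H2B) and Hist1h2ao (H2A) from chr13:21810198-21810464. All are intergenic sequences of GRCm38.p6 on the plus strand, bounded by the starts that GENCODE gives.
Hist1h2ac/Hist1h2bc: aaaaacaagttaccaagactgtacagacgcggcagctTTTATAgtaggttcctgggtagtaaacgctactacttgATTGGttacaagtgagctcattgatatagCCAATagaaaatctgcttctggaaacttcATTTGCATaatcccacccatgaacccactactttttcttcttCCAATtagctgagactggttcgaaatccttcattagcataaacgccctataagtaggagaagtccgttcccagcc
Hist1h2ag/Hist1h2bj: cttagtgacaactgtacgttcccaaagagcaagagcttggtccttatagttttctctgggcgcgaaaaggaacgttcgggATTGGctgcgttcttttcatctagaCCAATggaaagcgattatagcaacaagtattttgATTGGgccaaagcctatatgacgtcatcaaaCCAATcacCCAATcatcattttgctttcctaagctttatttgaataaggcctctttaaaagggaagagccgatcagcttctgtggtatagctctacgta
Hist1h2bq/Hist1h2ao: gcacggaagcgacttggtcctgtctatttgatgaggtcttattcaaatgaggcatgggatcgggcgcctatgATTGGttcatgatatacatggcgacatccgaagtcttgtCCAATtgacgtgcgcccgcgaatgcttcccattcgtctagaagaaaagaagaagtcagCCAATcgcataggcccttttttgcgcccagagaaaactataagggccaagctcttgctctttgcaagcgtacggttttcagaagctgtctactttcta

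In promoters from 250 bp before to 50 bp from the start, 56 of 67 histone genes (83.6%) held CCAAT, against 39% of all protein-coding promoters. The types differed, since all 18 H2A and all 18 H2B promoters held it but 4 of 13 H4 promoters did (30.8%). TATAAA was present in 37 histone promoters (55.2%), against 12.6% of all. The octamer was present in 15 (22.4%), against 1.57% of all, and these were 7 H2A and 8 H2B promoters with 0 from the other types. A match describes the letters only and says nothing about a bound factor.

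The lists were of unequal length. WT replicate 1 had 39080 peaks, WT replicate 2 had 11973, Shh-/- replicate 1 had 5589 and Shh-/- replicate 2 had 18459. The files hold no read counts, so the depth is unknown and a gene without a peak was not called, which does not show closed chromatin. Each comparison was therefore repeated with the best 5589 peaks of every list (equal list size). A gene was called in a library if a peak touched its body or the 1 kb upstream. Among genes chosen afterwards to check the tissue, the limb mesenchyme gene Prrx1 was called in 3 libraries, and the forelimb gene Tbx5 and the posterior gene Hand2 in 2 each (WT replicate 1 and Shh-/- replicate 2). Ptch1, a target gene of the Hedgehog pathway, was called in all 4, at ranks 1104 and 1660 in WT and 5555 and 2809 in Shh-/-, so both WT ranks were better. Shh itself was called in the same 2 libraries as Tbx5 and Hand2, and a peak over the gene does not test the allele.

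Most histone genes had a peak in every library. Of the 67, WT replicate 1 had a peak at 58 (86.6%, 95% Wilson interval 76.4 to 92.8%), against 65.9% of all protein-coding genes. WT replicate 2 had a peak at 52 (77.6%, 66.3 to 85.9%), against 43.2%. Shh-/- replicate 1 had a peak at 46 (68.7%, 56.8 to 78.5%), against 20.6%. Shh-/- replicate 2 had a peak at 58 (86.6%, 76.4 to 92.8%), against 55.4%. The histone share was above that of all genes in all 4 libraries, and the gap was widest in the shortest list, that of Shh-/- replicate 1. Intervals cover counting error only, and members that share a peak are not independent.

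**Figure D1:**
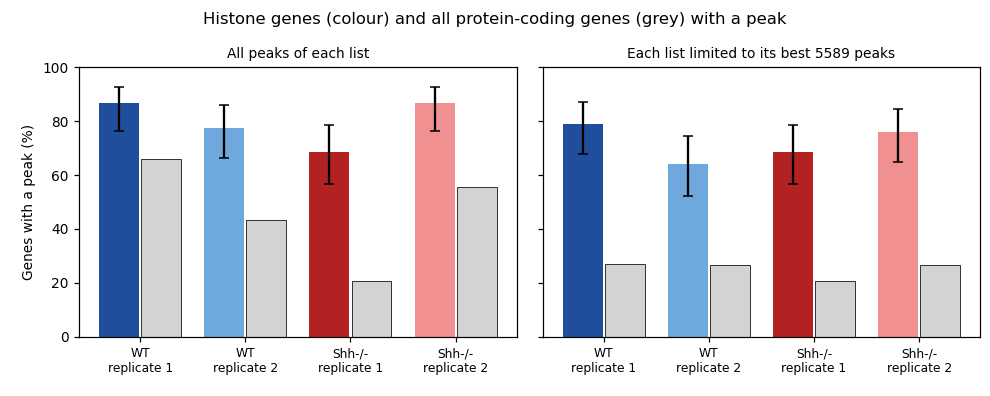
Share of the 67 histone genes (colour, with 95% Wilson intervals) and of all 21938 protein-coding genes (grey) with a peak, in percent on the vertical axis, for each of the 4 libraries. The left panel uses all peaks, where histone genes run from 68.7 to 86.6%, and the right panel uses the best 5589 peaks of each list, where they run from 64.2 to 79.1%.

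At equal list size 53 (79.1%) and 43 (64.2%) histone genes were called in WT and 46 (68.7%) and 51 (76.1%) in Shh-/-. Over all genes the shares were 27%, 26.7%, 20.6% and 26.5% in the same order. Histone genes are short, and a window of fixed size, from 1 kb before to 500 bp after each start, takes gene length out of the count. With it 56, 50, 44 and 57 histone genes were called in WT replicates 1 and 2 and Shh-/- replicates 1 and 2, against 55.2%, 35.2%, 15.6% and 46.9% of all genes. These are 83.6%, 74.6%, 65.7% and 85.1% of the histone genes.

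Clustered genes often lie under the same peak. In WT replicate 1 the 58 called genes had 39 distinct best peaks, and 33 of the 58 shared theirs with another histone gene. In Shh-/- replicate 1 the 46 called genes had 31 distinct best peaks, and 29 of the 46 shared theirs. At most 3 of the genes had the same best peak in any library. With the summit required inside the gene window, 52 (77.6%) and 47 (70.1%) genes were called in WT and 41 (61.2%) and 54 (80.6%) in Shh-/-, against 65.6%, 42.9%, 20.4% and 55% of all genes. Hist1h3h (H3), for example, was called in both WT libraries by the peak of Hist1h2ai, whose summit lay 1349 to 1359 bp before its start. The summit of the best peak lay within 500 bp of the annotated start for 43 (74.1%) and 43 (82.7%) genes in WT and 37 (80.4%) and 43 (74.1%) in Shh-/-. Over all called genes these shares were 67.5%, 72.3%, 68.5% and 73.8%. The farthest was Hist1h2be (H2B), whose annotated body spans 37455 bp and whose summits lay 35203 to 35289 bp from the annotated start.

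Histone peaks also stood high in their lists. Peaks were ranked by the deposited score, with rank 1 the highest, and the list position is the rank as a percentage of the list, with tied scores sharing their mean rank. The median list position of the best peak was 3.12% and 16.8% in WT and 20% and 6.63% in Shh-/-. Over all called genes it was 18.8%, 38.1%, 40.7% and 31.1%. The best 10% of the list held the best peak of 45 (77.6%) and 16 (30.8%) called histone genes in WT and of 12 (26.1%) and 31 (53.4%) in Shh-/-. Over all called genes these shares were 29.5%, 14.4%, 13.7% and 17.9%.

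**Figure D2:**
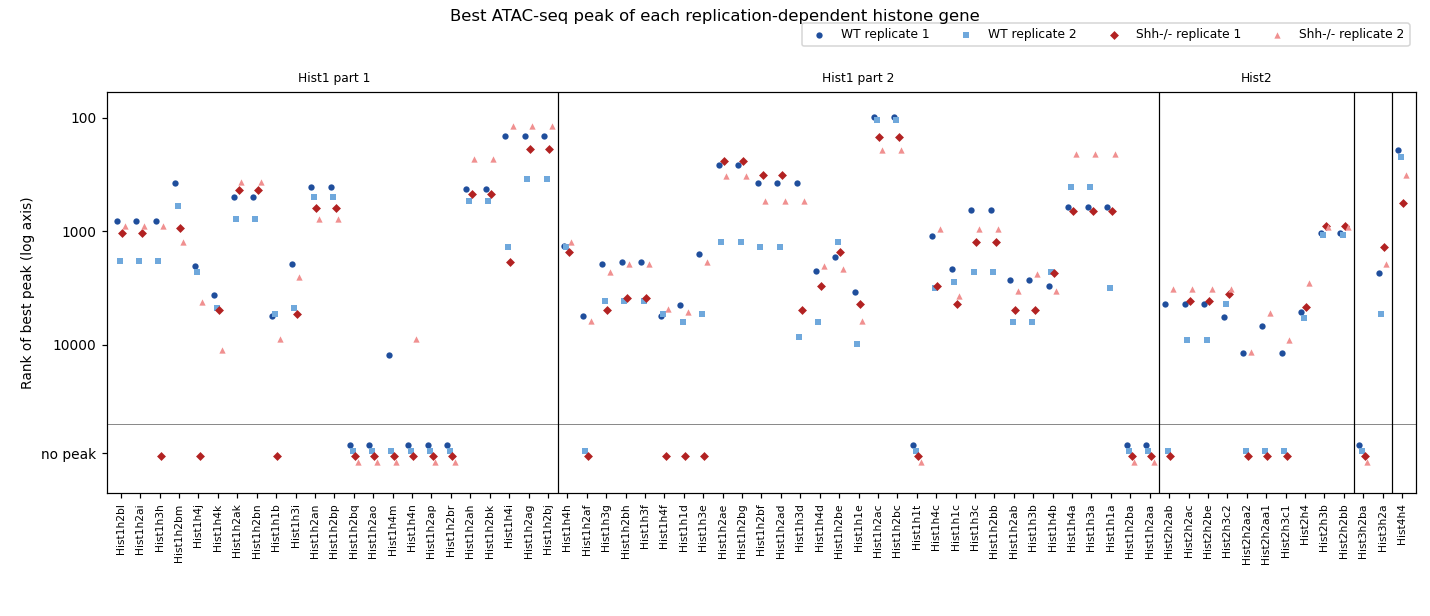
Rank of the best peak (vertical log axis, best ranks at the top) of each of the 67 histone genes in genome order, for the 4 libraries. Genes without a peak lie on the bottom line, and vertical lines divide Hist1 part 1, Hist1 part 2, Hist2, Hist3 (2 genes) and Hist4 (1 gene). Hist1h2ac and Hist1h2bc hold the top rank in every library but Shh-/- replicate 2, where Hist1h2ag and Hist1h2bj hold it with rank 119. Hist1h4i is drawn at that rank too because their peak touches its window. The peak with its summit in the Hist1h4i window ranked 998 in that library.

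The core histones H2A and H2B wrap DNA as dimers, and their called genes had the best positions. The median list position of H2B genes was 1.16% and 9.67% in WT and 13.8% and 4.51% in Shh-/-. For H2A genes it was 2.05%, 10.1%, 8.2% and 4.82%. The same 14 of 18 H2B genes (77.8%) were called in each library's full list, against 65.9%, 43.2%, 20.6% and 55.4% of all genes. H2A genes were called less evenly, with 15 of 18 (83.3%) in WT replicate 1 and Shh-/- replicate 2 and 11 of 18 (61.1%) in the other 2 libraries.

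H3 and H4 form the inner tetramer of the nucleosome, and H3 carries many of the regulatory tail modifications. Of 12 H3 genes, 12 and 11 were called in WT and 9 and 12 in Shh-/-. These are 100%, 91.7%, 75% and 100%, against 65.9%, 43.2%, 20.6% and 55.4% of all genes. Part of these calls came from a peak with its summit elsewhere, since 8 and 6 H3 genes in WT and 5 and 10 in Shh-/- had a summit in their own window. These are 66.7%, 50%, 41.7% and 83.3%, against 65.6%, 42.9%, 20.4% and 55% of all genes by summit. The share in WT replicate 1 was thus close to that of all genes. The median list position of H3 genes was 4.41%, 33.3%, 67.1% and 10.1%, taken from the best peak that touched each window. For Hist1h3d, for example, that was the peak of Hist1h2ad in WT replicate 1 (rank 374) and Shh-/- replicate 2 (rank 539). The best peaks with the summit in the Hist1h3d window ranked 6069 and 7135 there. Of 13 H4 genes, 12, 11, 9 and 12 were called (92.3%, 84.6%, 69.2% and 92.3%), at medians of 5.4%, 18.6%, 40.7% and 13.4%. With the summit in the window 11, 11, 9 and 11 were called, which are 84.6%, 84.6%, 69.2% and 84.6% of the H4 genes. In all 4 libraries these medians were lower in the list than those of H2A and H2B.

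The called linker histone H1 genes were placed lowest of the 5 types in all 4 libraries, with median list positions of 8.61%, 43.7%, 76% and 27.4%. Of the 6 H1 genes, 5, 5, 3 and 5 were called (83.3%, 83.3%, 50% and 83.3%), against 65.9%, 43.2%, 20.6% and 55.4% of all genes. Hist1h1c, a somatic H1, was called in all 4 libraries, at ranks 2166 and 2812 in WT and 4371 and 3745 in Shh-/-. Both WT ranks were better than both Shh-/- ranks. Hist1h1e, another somatic H1, was also called in all 4, at ranks 3391, 9900, 4370 and 6209, which overlapped between the genotypes. Its summits lay 198 and 395 bp after the start in WT and 1205 and 1233 bp after it in Shh-/-, past the end of the coding sequence. Both Shh-/- summits lay just upstream of the annotated start of Hist1h2be (chr13:23621124). In Shh-/- replicate 1 the whole peak (chr13:23621138-23621650) lay outside the Hist1h1e coding sequence, so this call may belong to the neighbouring start.

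Hist1h1b was called at ranks 5516 and 5394 in WT and 8826 in Shh-/- replicate 2, with 0 peaks in Shh-/- replicate 1. Hist1h1d was called at ranks 4463 and 6255 in WT and 5137 in Shh-/- replicate 2. Its summits lay 1923 to 2162 bp after the annotated start, over the coding sequence. Hist1h1a was called at ranks 606, 3185, 668 and 207, but in 3 libraries that peak had its summit 2301 to 2365 bp upstream, beside the start of Hist1h4a. The peak with its summit at Hist1h1a itself ranked 2062 and 3185 in WT and 3003 and 4812 in Shh-/-. Those ranks overlapped between the genotypes. Hist1h1t, the testis H1, had no peak in any library.

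Hist1h2ac and Hist1h2bc shared the histone peak with the best mean rank, which was the best histone peak in 3 libraries. It ranked 99 and 104 in WT and 147 and 194 in Shh-/-, with deposited scores of 2596, 572, 571 and 1078. Its summit lay between the starts shown above in all 4 libraries, 19 to 228 bp before the start of Hist1h2ac. Hist1h2ag and Hist1h2bj followed with ranks 146, 348, 189 and 119, which overlapped between genotypes, and theirs was the best histone peak in Shh-/- replicate 2. Their sequence holds 5 CCAAT and neither of the other motifs, while that of Hist1h2ac and Hist1h2bc holds 1 TATAAA, 3 CCAAT and 1 octamer.

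Hist4h4, the single Hist4 gene, encodes H4 and stands alone at chr6:136801553-136804415. It ranked 194 and 223 in WT and 560 and 322 in Shh-/-, with the summit 129 to 258 bp after its start. Its promoter held none of the 3 motifs. Of the Hist3 pair, Hist3h2a (H2A, chr11:58954685-58956830) ranked 2324 and 5322 in WT and 1370 and 1928 in Shh-/-, so both Shh-/- ranks were better. Its neighbour Hist3h2ba (H2B) had no peak, and the closest peak lay 4.41 to 4.96 kb from its window.

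Divergent genes within 1 kb of each other formed 13 pairs with 26 members, with starts 175 to 659 bp apart. In 10 pairs both genes had the same best peak in all 4 libraries, and in 8 of them that peak covered both starts each time. The first 3 of these by position were Hist1h2bl/Hist1h2ai, Hist1h2ak/Hist1h2bn and Hist1h2an/Hist1h2bp, each an H2A and an H2B gene. Their ranks were 808, 1836, 1033 and 902 for Hist1h2bl/Hist1h2ai. They were 495, 786, 431 and 372 for Hist1h2ak/Hist1h2bn. They were 408, 495, 619 and 786 for Hist1h2an/Hist1h2bp. The first pair overlapped between genotypes, the next was better placed in both Shh-/- libraries and the last in both WT libraries.

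**Figure D3:**
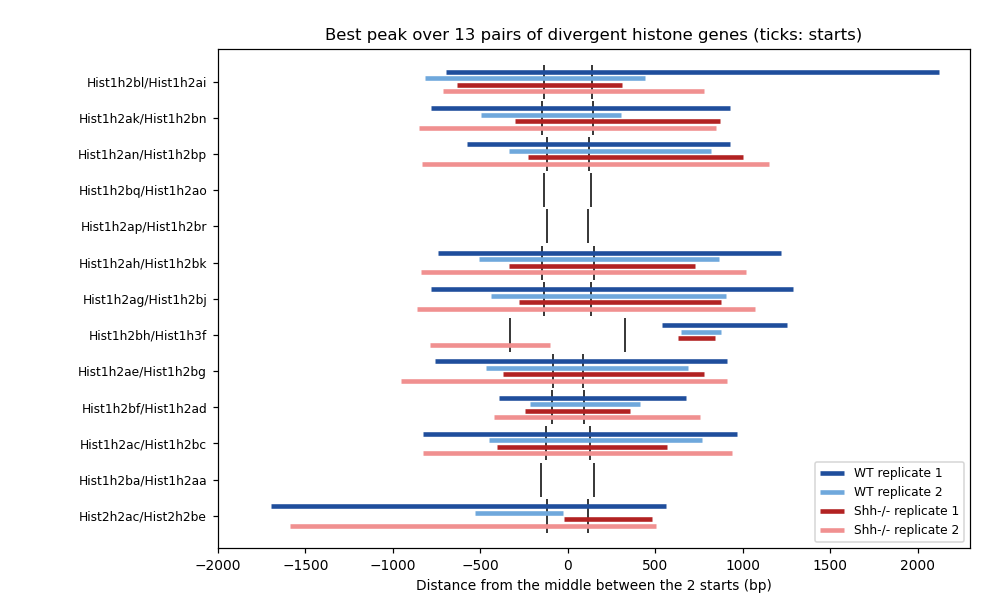
Extent of the shared best peak (coloured bars, 1 per library) over 13 pairs of divergent histone genes, by distance in bp from the middle between the 2 starts (ticks). In 8 pairs the bars cross both ticks in all 4 libraries, and 3 pairs have no bars.

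The called genes in pairs had median list positions of 1.05% and 8.27% in WT and 7.91% and 2.45% in Shh-/-. The called genes outside pairs had medians of 5.31% and 25.8% in WT and 36.7% and 12.4% in Shh-/-. The called genes in pairs were thus better placed in each library. In pairs 20 of 26 genes were called in each library, and outside them 38, 32, 26 and 38 of 41. Of all genes, 65.9%, 43.2%, 20.6% and 55.4% were called. Each pair but Hist1h2bh/Hist1h3f joined an H2A and an H2B gene, the types with the best medians. This comparison therefore does not separate pairing from histone type, and a peak shared by a pair counts for each of its genes. Outside the H2A/H2B pairs, Hist1h2bh/Hist1h3f was the widest (659 bp) and its peak covered both starts in 0 libraries.

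The genotypes were compared by asking which genes were called in both libraries of a genotype and in neither of the other. With all peaks this held for 0 histone genes in WT and 0 in Shh-/-, against 1.96% and 0.0273% of all genes. In all, 46 histone genes were called in all 4 libraries (68.7%, against 18.5% of all genes). A further 6 were missing from Shh-/- replicate 1 alone (8.96%, against 22.1% of all genes): Hist1h1b, Hist1h1d, Hist1h3e, Hist1h3h, Hist1h4f and Hist1h4j. Another 5 were called only in the longer list of each genotype, WT replicate 1 and Shh-/- replicate 2 (7.46%, against 12% of all genes). They were Hist1h2af, Hist2h2aa1, Hist2h2aa2, Hist2h2ab and Hist2h3c1. Without Shh-/- replicate 2, 6 genes were called in WT only (8.96%, against 24% of all genes). Without WT replicate 2, 1 was (1.49%, against 11.4%), and without Shh-/- replicate 1, 1 gene was called in Shh-/- only (1.49%, against 1.06%). The other counts with a library left out were 0. Of all genes, 2.32% were then called in WT only without WT replicate 1 and 2.06% without Shh-/- replicate 1, and 1.65%, 0.0273% and 0.105% were called in Shh-/- only without WT replicate 1, WT replicate 2 and Shh-/- replicate 2.

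At equal list size Hist1h1b was called in both WT and in no Shh-/- library, and 0 genes showed the reverse, against 1.5% and 0.638% of all genes. Its WT ranks of 5516 and 5394 lay just inside the limit of 5589. In WT replicate 1 its score of 209 was the score at the limit, which 218 peaks shared. At this list size 36 histone genes were called in all 4 libraries (53.7%, against 14.1% of all genes) and 12 in none (17.9%, against 63.1%).

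Ranks at equal list size were then compared for the 55 histone genes called in at least 1 library, with an uncalled gene placed at the end. For 10 genes both WT ranks were better than both Shh-/- ranks (18.2%, against 17.8% of 8104 tested genes). For 9 genes both Shh-/- ranks were better (16.4%, against 9.64%). The first share is close to that of all genes, and ranks overlapped for 36. By an exact permutation test with 2 libraries against 2 (two-sided), 19 of 55 genes reached the smallest p that this design allows, 0.333, as did 27.4% of all tested genes, so no single difference could pass 0.05. The 10 genes had 8 distinct sets of ranks and the 9 had 6, since genes under the same peaks share their ranks. The counts moved with single libraries. Genes better placed in WT numbered 25 without WT replicate 2 (45.5%, against 33.7% of all tested genes) and 19 without Shh-/- replicate 2 (34.5%, against 36.3%). Genes better placed in Shh-/- numbered 29 without WT replicate 1 (52.7%, against 19%) and 24 without Shh-/- replicate 1 (43.6%, against 31.2%). Genes better placed in WT numbered 12 both without WT replicate 1 and without Shh-/- replicate 1 (21.8%, against 36.3% and 23.8%). Genes better placed in Shh-/- numbered 9 without WT replicate 2 (16.4%, against 13.5%) and 13 without Shh-/- replicate 2 (23.6%, against 26.1%).

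**Figure D4:**
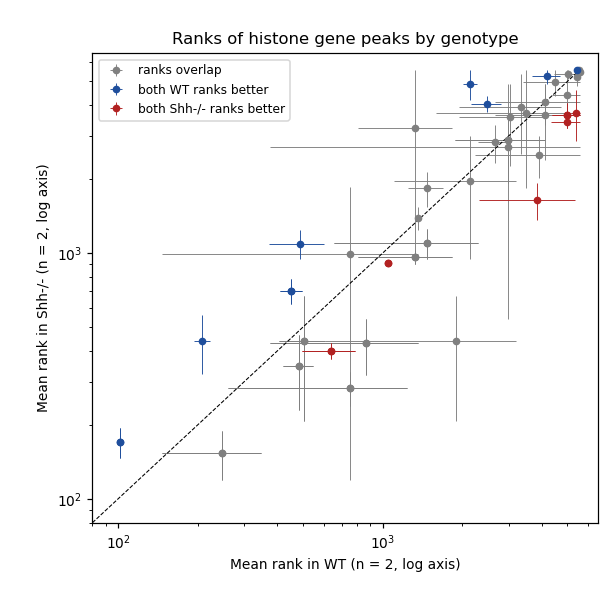
Mean rank of the best peak at equal list size in WT (horizontal log axis) and in Shh-/- (vertical log axis) for 55 histone genes, with bars from the lower to the higher of the 2 replicates. Both WT ranks are better for 10 genes (blue), both Shh-/- ranks for 9 (red), and the ranks overlap for 36 (grey).

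The direction was then read by cluster, with no test of a difference between clusters. Over all tested genes the shares were 17.8% for better WT ranks and 9.64% for better Shh-/- ranks. In Hist1, 9 of 45 tested genes (20%) had better ranks in both WT libraries (Hist1h2ac, Hist1h2bc, Hist1h2an, Hist1h2bp, Hist1h2bm, Hist1h1c, Hist1h4j, Hist1h4k and Hist1h1b), and 2 (4.44%) in both Shh-/- libraries (Hist1h2ak and Hist1h2bn, under 1 peak). In Hist2, 0 of 8 tested genes had better ranks in WT and 6 (75%) had better ranks in Shh-/-. These were Hist2h3b, Hist2h2bb, Hist2h3c2, Hist2h2ac, Hist2h2be and Hist2h4, with 4 distinct sets of ranks. A set of ranks need not come from a single site. The best peaks of Hist2h2ac and Hist2h2be in WT replicate 2 (chr3:96220471-96220971) and Shh-/- replicate 1 (chr3:96220977-96221482) did not overlap. Of the 6 genes, Hist2h3b and Hist2h2bb had the best shared ranks, 1032 and 1070 in WT and 900 and 917 in Shh-/-, a narrow gap. The other genes rested on a WT library in which they were uncalled at this list size and placed at the end. This was WT replicate 2 for Hist2h2ac, Hist2h2be and Hist2h4 and WT replicate 1 for Hist2h3c2. In the other direction, Hist1h4j, Hist1h4k and Hist1h1b were likewise uncalled in a Shh-/- library or in both. These names were picked after their values were seen, and neighbouring genes are not independent.

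Histone genes include near-identical copies, and a read from such a copy matches several places in the genome. The share of 75-mers that occur again in the genome, at the study's read length of 75 bases, was therefore computed for each gene window. The median was 19.2% over all 67 genes and 19% over the 46 called in all 4 libraries. In 6 genes it exceeded 90%: Hist1h2ao, Hist1h2ap, Hist1h2bq and Hist1h2br at 100%, Hist1h4m at 94.4% and Hist1h4n at 94.8%. The windows around the coding start of Hist1h2ao and Hist1h2ap differed in 0 of 1501 bases, as did those of Hist1h2bq and Hist1h2br. Those of Hist1h4m and Hist1h4n differed in 31 of 1501 bases (97.9% identical).

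The 4 genes at 100% had 0 peaks in all libraries. Hist1h4m was called in WT replicate 1 only, at rank 12344, and Hist1h4n in Shh-/- replicate 2 only, at rank 8827. In both cases the summit of the peak lay outside the gene window. How the authors filtered reads with several matches is not given in the sources used here, and the part of repeated sequence in these calls was not tested. Genes with shares from 42.1 to 73.9% went both ways. Hist2h3c2 (73.9%), Hist1h2ah (44.3%) and Hist1h2bk (42.1%) were called in all 4 libraries. Hist2h3c1 (53%), Hist2h2aa2 (44.4%) and Hist2h2aa1 (42.7%) were called in WT replicate 1 and Shh-/- replicate 2 alone.

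**Figure D5:**
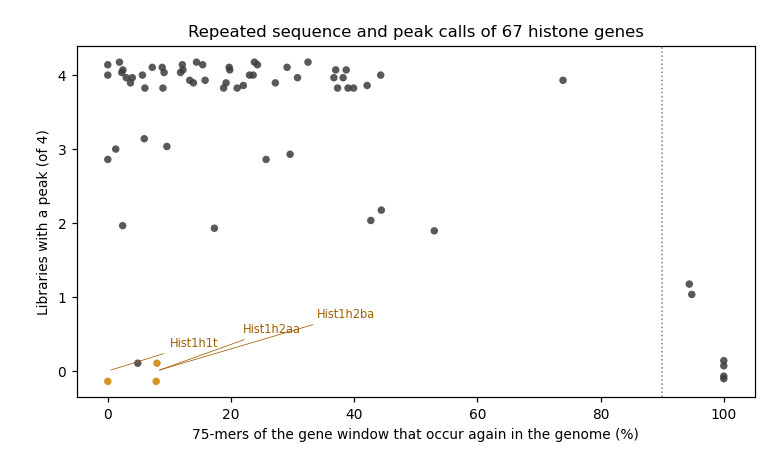
Share of repeated 75-mers in the gene window (horizontal axis, percent) against the number of the 4 libraries with a peak, 1 point per histone gene, spread slightly in height. The 6 genes right of the dotted line at 90% were called in 0 or 1 library, and the testis genes Hist1h1t, Hist1h2aa and Hist1h2ba (orange) have shares under 8% and 0 calls.

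The other 4 genes without any peak had low shares of repeated 75-mers. Hist1h1t had a share of 0%, Hist1h2ba (testis H2B) 7.86%, Hist1h2aa (testis H2A) 7.98% and Hist3h2ba 4.87%. Hist1h2ba and Hist1h2aa are a divergent pair at the edge of Hist1 part 2, and the closest peak in any library lay 169 to 170 kb from their windows. For Hist1h1t it lay 0.912 to 1.31 kb away. Of all protein-coding genes, 32.4% had no peak in any library, against 8 of 67 histone genes (11.9%).

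Other genes of histone supply were read in the same manner from a list taken from general knowledge. Of 9 genes for histone mRNA transcription and end formation, 9 and 8 were called in WT and 5 and 9 in Shh-/-, beside 65.9%, 43.2%, 20.6% and 55.4% of all genes. At equal list size 8 and 5 of the 9 were called in WT and 5 and 7 in Shh-/-, beside 27%, 26.7%, 20.6% and 26.5% of all genes. Slbp ranked 555 and 423 in WT and 331 and 573 in Shh-/-. Npat ranked 550 and 295 in WT and 852 and 523 in Shh-/-. Casp8ap2, which encodes another factor of the histone locus body, ranked 326 and 517 in WT and 392 and 765 in Shh-/-. The ranks of Slbp, Npat and Casp8ap2 overlapped between the genotypes.

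Of 6 histone chaperone genes, 6, 6, 5 and 6 were called, beside 65.9%, 43.2%, 20.6% and 55.4% of all genes. At equal list size 6, 5, 5 and 6 were called, beside 27%, 26.7%, 20.6% and 26.5% of all genes. Asf1b, whose product carries new H3 and H4 to the replication fork, ranked 80 and 262 in WT and 85 and 61 in Shh-/-. Of 11 genes for histone variants with other symbols, H2afx among them, 11 and 8 were called in WT and 4 and 11 in Shh-/-. The full-list shares of all genes are those given for the chaperones. H2afz, which encodes the variant H2A.Z, ranked 274 and 332 in WT and 826 and 600 in Shh-/-, so both WT ranks were better. H2afv, which encodes its sister variant, ranked 407 and 402 in WT and 403 and 140 in Shh-/-. At equal list size 6 and 6 of the 11 were called in WT and 4 and 6 in Shh-/-, beside the same shares of all genes as for the chaperones.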

How the data were processed

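ATAC-seq libraries were sequenced by the authors as paired ends of 75 bases and aligned to mm10. The submitters' processing notes name Bowtie2 2.2.5 and MACS2 2.1.0, and peaks were called in each library on its own at a q-value cutoff of 0.05. Read filters and any shift for the Tn5 cut are not given in the sources used here. The deposited score of each peak was used as the authors gave it, for ranks within its own list only. All values in the deposited fold, p-value and q-value columns were 0, and they were left out.

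Genes came from GENCODE M21 and sequences from GRCm38.p6, in which 0 peaks passed a chromosome end. The genes and lists were chosen with earlier results of these data known. Overlaps (at least 1 bp), ranks and exact permutation tests were computed with Python 3.11.15, pandas 2.3.3, numpy 2.4.6 and scipy 1.17.1, and these steps were checked on planted peaks and ranks with known answers. Libraries were grouped by genotype in their titles. Tied scores were ordered by position. Shares carry 95% Wilson intervals, with no test over the genes as a list.

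Named genes were the 5 with the best mean rank at equal list size, the genes specific to a genotype, the 8 without peaks, all H1, Hist3, Hist4 and testis genes, and 3 divergent pairs whose starts share a peak. Other names were chosen after their values were seen. Alternatives changed the score threshold, the overlap, the window, the list size and the ties, or left out a library.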

Additional observations from a re-analysis of the deposited data

How the results depend on the processing

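Of 144 alternative values, 131 stayed within 1.5 times the reported count or within the spread between replicates. With a score of at least 100, 31 histone genes were called in WT replicate 2 and 29 in Shh-/- replicate 1, at median list positions of 9.22% and 11%, since fewer peaks remain. The shares and medians of all genes at this score were not computed. With the summit required inside the window, 1 gene (Hist1h3b) was called in both Shh-/- libraries and in no WT library. The share of all genes with this pattern was not counted. Without that rule Hist1h3b was called in all 4 libraries. In WT replicate 1 it lay under a peak of 2121 bp whose summit lay 1 bp after the start of Hist1h2ab. At equal list size 1 gene (Hist1h1b) was called in WT only. With a library left out, genes called in WT only ranged from 0 to 6 (6 without Shh-/- replicate 2, 1 without WT replicate 2) and genes called in Shh-/- only from 0 to 1 (1 without Shh-/- replicate 1). Genes with better WT ranks then ranged from 12 to 25 (25 without WT replicate 2, 19 without Shh-/- replicate 2), and genes with better Shh-/- ranks from 9 to 29 (29 without WT replicate 1, 24 without Shh-/- replicate 1). A lone library then stands for its genotype.

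The replicate numbers in the titles mark separate embryos and do not pair the libraries. With the replicate number as a replicate block, where same-numbered libraries are compared, 10 genes ranked better in WT and 13 in Shh-/- in both pairs. The shares of all tested genes under this block were not counted, so these counts show no lean of the histone genes. Leaving out the 6 repeated genes, a window around the coding start and shared mean ranks for ties were chosen after seeing the data, and each gave a value within 1.5 times the reported one. The unknown depth and the unequal lists limit what the absence of a peak can show.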

Other observations

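Beyond the 60 histone genes, 5 other protein-coding genes held the stem-loop within 100 bp after the stop codon: H2afx, H2bfm, Ttc14, Tal1 and Cdc40. H2afx, which encodes the H2A variant marked at DNA breaks, ranked 993 and 1101 in WT and 2279 and 479 in Shh-/-. Ttc14 ranked 1912 and 887 in WT and 2766 and 731 in Shh-/-, and Cdc40, which encodes a splicing factor, ranked 1857 and 1808 in WT and 4288 and 1735 in Shh-/-. The ranks of all 3 overlapped between the genotypes. Tal1, a blood cell transcription factor, was called in WT replicate 1 and Shh-/- replicate 2 alone, at ranks 15597 and 12763, and H2bfm had no peak in any library. A match after the stop codon describes the letters only.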
